A study of Mus musculus with 49 samples.

Results

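Endothelial and mural cell genes were examined in the neuronal cell layers of the mouse hippocampus. They were 8 genes fixed by name with earlier results of these data known, of the 11807 genes that the arrays name. The endothelial genes were Cldn5, Abcb1a, Ly6c1, Pecam1 and Flt1, and the mural genes were Rgs5, Vtn and Myl9. Mural cells are the pericytes and smooth muscle cells that wrap the endothelial tube. The 8 genes had 15 probe sets (8 endothelial and 7 mural) of the 22626 tested, and all 15 were kept, since no filter on low values was applied. Laser capture had cut 3 layers from stained brain sections, the pyramidal cells of CA1, those of CA3 and the granule cells of the dentate gyrus (DG), so that vessels running through a layer were taken with its neurons. The 49 arrays came from 17 female mice aged 6.1 months. The mice were bred from an FVB/N tau line and a 129S6 transactivator line. The 6 rTg4510 mice carried 2 transgenes, a responder for human tau with the P301L change and the transactivator tTA that switches it on. The 5 tTA mice carried the transactivator alone, and the 6 DN mice, littermates, carried neither. tTA is driven by the CaMKIIα promoter, which is active in forebrain excitatory neurons and not in vessel cells, so the transgenes are neuronal. CA1 arrays came from 5 rTg4510, 5 tTA and 6 DN mice, CA3 arrays from 6 rTg4510, 5 tTA and 5 DN mice, and DG arrays from 6 rTg4510, 5 tTA and 6 DN mice. Setting rTg4510 against tTA mice, which share the transactivator, addresses mutant tau, and setting tTA against DN mice addresses the transactivator.

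Brain capillaries are lined by endothelial cells that are sealed to each other by tight junctions and carry efflux pumps and transporters, which together form the blood-brain barrier. Pericytes lie on the outer face of the capillary within a shared basement membrane, and smooth muscle cells take their place on arterioles and set the width of the vessel by contraction. Endothelial cells read growth signals such as VEGF through surface receptors. In a neuronal cell layer, vessel cells are a small part of the tissue.

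Values are log2 expression values, so a difference of 1 is a doubling, and a mean is followed by its SD over mice. A probe set is called dim in a group where the group's mean lies below 5.04, the median over all probe sets of their mean, and a gene outside the 8 is called dim where the lower of the 2 means compared does. Of the 15 probe sets, 3 were dim in all 9 groups (the only probe set of Pecam1, 1419300_at of Flt1 and 1419758_at of Abcb1a), 4 in some groups and 8 in none. A probe set is called at an adjusted p (limma, Benjamini-Hochberg over the 22626 probe sets) below 0.05. The captured layers carried the markers of their own neurons, by means over all arrays of a layer with the 3 genotypes together. The highest mean was in the matching layer for 4 of 4 CA1 genes, 4 of 5 CA3 genes and 8 of 8 granule cell genes. By array, the mean of the 4 CA1 genes was at least 9.12 in DN and 8.44 in tTA CA1. It was as low as 6.40 in rTg4510 CA1 and as high as 7.01 in another layer (tTA CA3). The CA3 and granule cell lists had no such overlap. In bulk layers with values normalized per array, more vessel cells, more RNA per vessel cell and less RNA from neurons beside them cannot be told apart. The 3 comparisons within a layer share their groups, so they are not independent of each other.

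The same groups held the highest and the lowest mean for most member probe sets. Shares over all probe sets were not taken for these counts, and the 15 probe sets stand for 8 genes. The highest group mean was that of rTg4510 CA1 for 14 of the 15 probe sets, the exception being Pecam1, whose means in tTA CA1 (3.85) and rTg4510 CA1 (3.77) lay within their spread. For none of the 15 did the arrays of the highest group lie wholly above those of the second. The second group was a tTA group or rTg4510 DG in each of the other 14, such as tTA DG for Cldn5 (5.80 against 6.43 in rTg4510 CA1) and Ly6c1 (7.39 against 7.63 in rTg4510 CA1). The lowest mean was that of a DN group for 13 of 15, most often DN DG (9 probe sets). The exceptions were 1419758_at of Abcb1a, lowest in tTA CA1 (4.13), and 1419300_at of Flt1, lowest in rTg4510 CA3 (4.14), both dim.

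Without transgenes, 1 call among the members separated the 3 layers. Between CA1 and CA3 of DN mice 0 of the 15 probe sets were called (12.9% of all probe sets were called in either direction; 2 members at an unadjusted p below 0.05), and between CA3 and DG 0 of 15 (21.7% of all; 0 members unadjusted). Between CA1 and DG, 1 of 15 was called higher in CA1 (8.89% of all probe sets), 1420942_s_at of Rgs5, with 6.26 ± 0.36 in CA1 and 5.75 ± 0.52 in DG (SD, n = 6 each, difference 0.52, adjusted p = 0.0437). Of the 15, 5 had an unadjusted p below 0.05, and with array weights 5 were called. The differences were above 0 for 14 of 15 between CA1 and CA3 and for 13 of 15 between CA1 and DG. The Rgs5 call was lost in 5 of the 6 fits that left out 1 DN mouse, all but mouse4866. Vtn, a glycoprotein that pericytes secrete, followed with a difference of 0.65 on 1455098_a_at (adjusted p = 0.0569). For Cldn5 the interval of the CA1 and DG difference was −0.18 to 0.52.

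**Figure D1:**
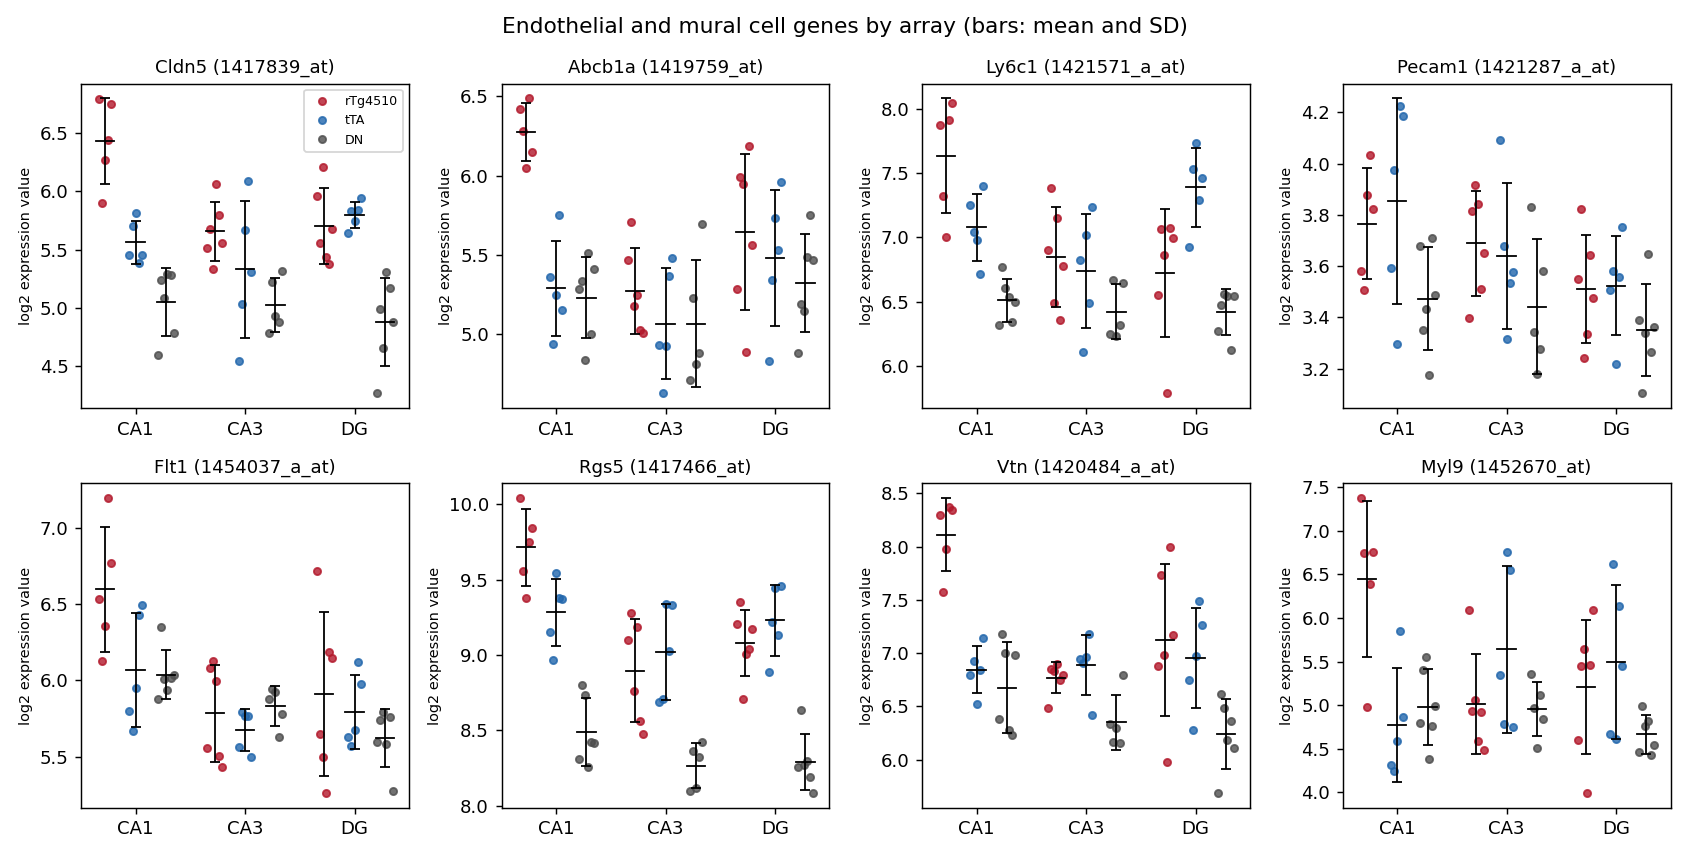
log2 expression values of the brightest probe set of each of the 8 genes (y axis, log2 scale) in every array, by layer (x axis) and genotype (rTg4510 red, tTA blue, DN gray), with bars for the mean and SD. In CA1 all 5 rTg4510 arrays of Cldn5, Abcb1a and Vtn lie above every tTA array, while DN arrays of Rgs5 lie below every tTA array in each layer.

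The stretches around the start sites of the 4 members that were called on every probe set between rTg4510 and tTA mice in CA1 are shown for reference to the gene names (RefSeq, build GRCm38.p6, mouse, 250 bases before and 50 after the start, 5′ to 3′ on the gene's strand, which is plus for all 4). Capitals mark GGAA on either strand, the core that ETS factors of endothelial cells bind, written GGAA or TTCC, and the CArG box, the element of serum response factor in smooth muscle genes. Windows were found for 7 of the 8 members. The windows lie at chr16:18776597-18776896 (Cldn5), chr5:8566841-8567140 (Abcb1a), chr11:78498870-78499169 (Vtn) and chr2:156775214-156775513 (Myl9).
Cldn5: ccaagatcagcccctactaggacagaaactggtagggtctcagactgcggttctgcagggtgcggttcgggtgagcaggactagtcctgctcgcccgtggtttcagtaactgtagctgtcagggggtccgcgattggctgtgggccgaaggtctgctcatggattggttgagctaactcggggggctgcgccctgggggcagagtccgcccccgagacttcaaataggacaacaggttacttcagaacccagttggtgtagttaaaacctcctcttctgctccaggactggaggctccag
Abcb1a: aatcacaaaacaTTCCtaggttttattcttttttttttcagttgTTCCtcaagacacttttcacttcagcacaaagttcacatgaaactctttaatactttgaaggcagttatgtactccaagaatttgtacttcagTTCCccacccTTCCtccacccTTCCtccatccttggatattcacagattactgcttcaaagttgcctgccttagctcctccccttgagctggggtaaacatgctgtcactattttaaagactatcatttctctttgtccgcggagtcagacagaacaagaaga
Vtn: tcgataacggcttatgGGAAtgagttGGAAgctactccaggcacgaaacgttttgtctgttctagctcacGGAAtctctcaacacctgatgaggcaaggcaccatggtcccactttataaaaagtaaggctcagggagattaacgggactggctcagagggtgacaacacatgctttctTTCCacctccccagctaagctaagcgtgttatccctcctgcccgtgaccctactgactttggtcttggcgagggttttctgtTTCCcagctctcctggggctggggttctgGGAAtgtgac
Myl9: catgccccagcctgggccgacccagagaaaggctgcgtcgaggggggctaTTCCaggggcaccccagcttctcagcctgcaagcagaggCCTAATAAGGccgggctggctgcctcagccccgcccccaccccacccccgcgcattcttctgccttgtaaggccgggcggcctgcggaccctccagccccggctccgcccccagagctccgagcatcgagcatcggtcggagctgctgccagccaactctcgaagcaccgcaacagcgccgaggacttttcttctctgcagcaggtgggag
GGAA stood 5 times in the window of Abcb1a, 6 times in that of Vtn, 1 time in that of Myl9 and 0 times in that of Cldn5, and 96% of the 32851 mouse windows of this length hold it. A CArG box stood only in the window of Myl9, starting at position −161 from the start site, and 1.63% of all windows hold one. The 2 motifs do not overlap in these windows. A match is a description of letters and no site was measured.

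Between rTg4510 and tTA mice in CA1, vessel genes of both cell types were higher in rTg4510. Of 15 probe sets 8 were called higher and 0 lower, against 6.01% of all probe sets called higher, and these 8 belonged to 5 genes: Cldn5 and Abcb1a of the endothelial genes and Rgs5, Vtn and Myl9 of the mural genes. The differences of the 15 had a median of 0.62, against −0.03 over all probe sets, and 14 were above 0. All 8 calls held in each of the 10 fits that left out 1 of these mice. Without the DN arrays, which lend their spread to the fit, 5 calls were left and those of Myl9 (adjusted p = 0.0510), 1420941_at (0.0539) and 1420940_x_at (0.0602) of Rgs5 were lost.

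Claudin 5 (Cldn5) is the main strand protein of the tight junction of brain endothelium. In CA1 its values were 6.79, 5.90, 6.27, 6.44 and 6.75 in rTg4510 mice and 5.45, 5.70, 5.82, 5.39 and 5.45 in tTA mice. The groups did not overlap, with means of 6.43 ± 0.37 and 5.56 ± 0.19 (SD, n = 5 each), a difference of 0.87 (SE 0.17, 1.82-fold, adjusted p = 0.00502). Abcb1a, the P-glycoprotein pump that returns drugs and other compounds to the blood, had values of 6.42, 6.28, 6.05, 6.49 and 6.15 in rTg4510 mice and 5.36, 4.94, 5.25, 5.75 and 5.15 in tTA mice on 1419759_at. Here too the groups lay apart, by 0.99 (SE 0.15, 1.98-fold, adjusted p = 0.00114), and the dim probe set 1419758_at differed by 0.85 (SE 0.18, adjusted p = 0.0062), again without overlap.

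The other endothelial genes were not called. Ly6c1, a lipid-anchored surface protein of brain capillaries that some blood monocytes also carry, had values of 7.88, 7.32, 7.01, 7.91 and 8.05 in rTg4510 CA1 and 7.26, 7.05, 6.98, 6.72 and 7.40 in tTA CA1. Of the 5 rTg4510 arrays 3 lay above all tTA arrays, and the difference was 0.55 (95% CI 0.17 to 0.94, adjusted p = 0.0614). Flt1, the VEGF receptor that binds VEGF tightly and signals weakly, had differences of 0.53 (1454037_a_at, adjusted p = 0.0900), 0.05 (1451756_at) and 0.02 (1419300_at), and its 3 probe sets are not equivalent, since the suffix _a marks sets that read several transcript forms of 1 gene. Pecam1, the adhesion molecule of endothelial cell borders, was dim in every group (means from 3.35 to 3.85) and differed by −0.09 (95% CI −0.44 to 0.27).

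Among the mural genes, Myl9 had the largest difference and Vtn, which pericytes secrete in the brain, the lowest adjusted p. The values of Vtn on 1455098_a_at were 8.07, 7.72, 7.61, 7.97 and 7.93 in rTg4510 CA1 and 6.51, 6.46, 6.54, 6.59 and 6.80 in tTA CA1. The groups did not overlap, and the difference was 1.28 (SE 0.18, 2.42-fold, adjusted p = 0.000673), with 1.27 on 1420484_a_at (SE 0.20, adjusted p = 0.00137), also without overlap. Myl9, the regulatory light chain of smooth muscle myosin, had values of 7.38, 6.74, 4.97, 6.39 and 6.76 in rTg4510 CA1 and 4.31, 4.25, 4.59, 5.85 and 4.87 in tTA CA1. It had the widest spread of the called genes: 4 of 5 rTg4510 arrays lay above all tTA arrays, mouse4600 lay among them, and the difference was 1.68 (SE 0.38, 3.19-fold, adjusted p = 0.0106), with tTA mice dim.

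Rgs5, a brake on G protein signaling that marks pericytes, was higher on all 4 of its probe sets, of which 2 were called. On 1420941_at its values were 8.38, 7.99, 7.70, 7.93 and 8.29 in rTg4510 CA1 and 7.12, 7.28, 7.51, 7.60 and 7.74 in tTA CA1, a difference of 0.61 (SE 0.15, adjusted p = 0.0133). The set 1420940_x_at, dim in tTA mice, differed by 0.999 (adjusted p = 0.0168), and its suffix _x marks probes that may bind other transcripts. The sets 1417466_at (difference 0.43, adjusted p = 0.0651) and 1420942_s_at (0.62, adjusted p = 0.0899) were not called. In each of the 4 sets at least 1 rTg4510 array lay within the tTA range.

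**Figure D2:**
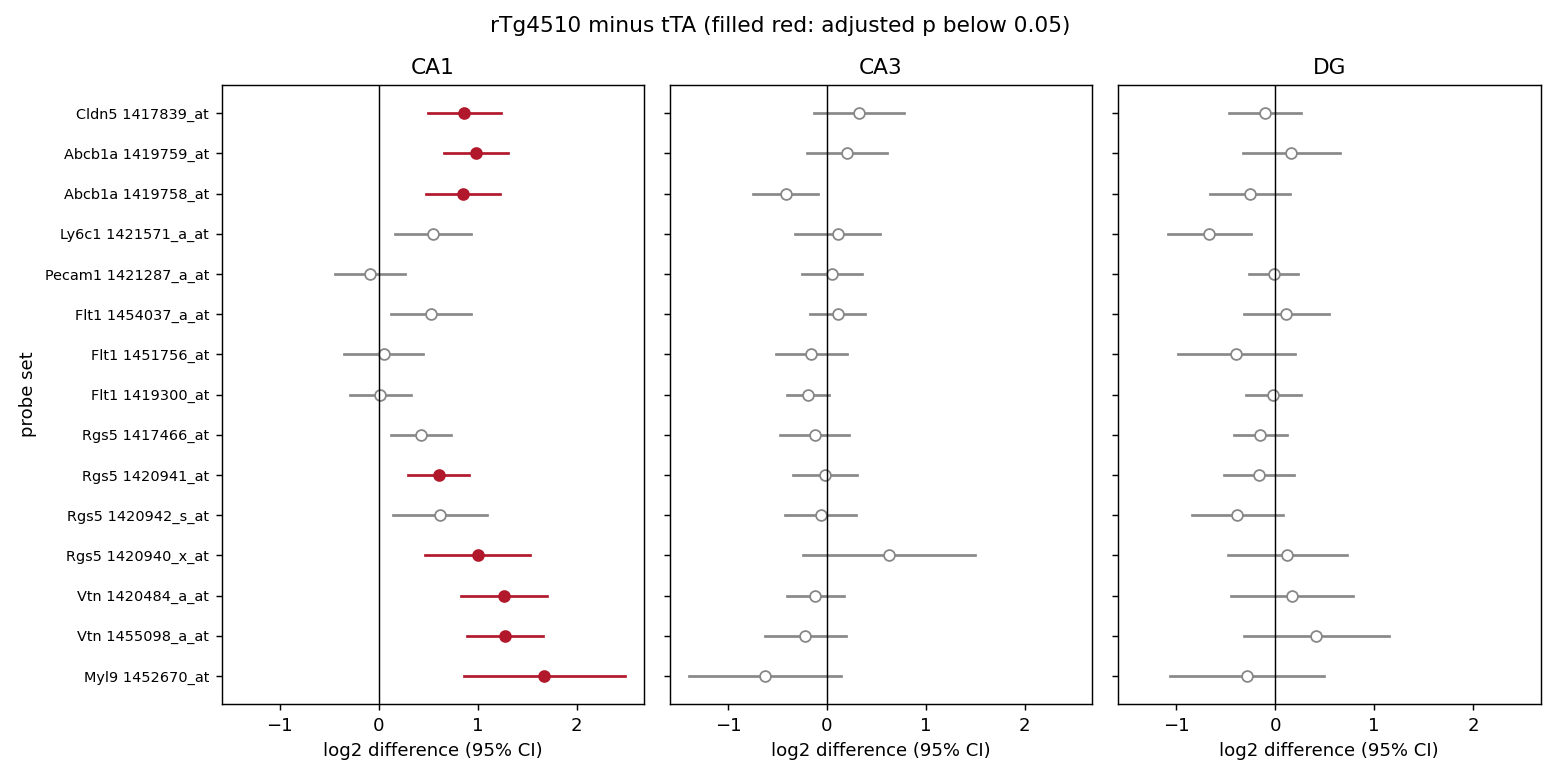
Difference between rTg4510 and tTA mice (x axis, rTg4510 minus tTA, log2) for each of the 15 probe sets (y axis) in CA1, CA3 and DG, with the 95% confidence interval as a line; filled red points have an adjusted p below 0.05. The 8 called probe sets are all in CA1 and all above 0.

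In CA3 and DG none of the 15 probe sets was called between rTg4510 and tTA mice, where 1.13% (CA3) and 0.782% (DG) of all probe sets were called in either direction and 1 member in each layer had an unadjusted p below 0.05 (limma). The median difference of the 15 was −0.06 in CA3 and −0.10 in DG. In CA3 Cldn5 differed by 0.33 (95% CI −0.13 to 0.78) and Vtn by −0.12 on 1420484_a_at (95% CI −0.40 to 0.17). In DG Cldn5 differed by −0.10 (95% CI −0.46 to 0.26) and Ly6c1 by −0.66 (95% CI −1.09 to −0.24, adjusted p = 0.113). Ly6c1 had 5.79, 6.93 and 7.08 (lowest, median and highest) in rTg4510 DG, against 6.92, 7.54, 7.74, 7.29 and 7.46 in tTA DG, with overlap. The mean of the 8 members was 5.46 in the rTg4510 DG array of mouse4621, which gave no CA1 array. In the other rTg4510 DG arrays it lay between 6.10 and 6.37. Intervals were wide for Myl9, with a difference of −0.63 in CA3 (95% CI −1.39 to 0.14) and −0.29 in DG (95% CI −1.06 to 0.49), and for 1420940_x_at of Rgs5 in CA3 (95% CI −0.25 to 1.49).

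Whether the difference itself varied between layers was tested over all 49 arrays with the mouse as a random block. Between CA1 and CA3, the rTg4510 minus tTA difference was larger in CA1 for 4 of 15 probe sets (2.19% of all probe sets were called higher) and smaller for 0. These were 1419758_at of Abcb1a (1.25, adjusted p = 0.0025), both sets of Vtn (1.36 and 1.45, adjusted p = 0.00954 and 0.0165) and Myl9 (2.27, adjusted p = 0.0107). The call of 1455098_a_at of Vtn was lost without rTg4510 mouse4535 or tTA mouse4626, at an adjusted p of up to 0.0649. Cldn5 (0.54, adjusted p = 0.280) and 1419759_at of Abcb1a (0.77, adjusted p = 0.113) were not called, so their differences in CA1 were not shown to differ from those in CA3.

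Between CA1 and DG, 7 of 15 probe sets differed more in CA1 (3.2% of all probe sets were called higher) and 0 less. Ly6c1 (1.21, adjusted p = 0.00537) and 1419758_at of Abcb1a (1.08, adjusted p = 0.00411) kept the call without any 1 mouse. Cldn5 (0.97, adjusted p = 0.0208) lost it without tTA mouse4637 or rTg4510 mouse4653 or mouse4666, and Myl9 (1.93, adjusted p = 0.0235) without rTg4510 mouse4535 or mouse4621 or tTA mouse4580. The sets 1420941_at (0.76) and 1420942_s_at (0.99) of Rgs5 and 1420484_a_at of Vtn (1.07) lost it in 4, 6 and 7 of the 11 fits that left out a mouse. Ly6c1 (0.55 in CA1 and −0.66 in DG) and 1420942_s_at of Rgs5 (0.62 in CA1 and −0.38 in DG) were called in neither layer alone. Between CA3 and DG 0 of 15 were called (0.00884% of all probe sets in either direction, 2 probe sets in all; 1 member unadjusted).

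Other cells moved with the vessel genes in the same arrays. In CA1 the lists of microglia (11 of 17 genes higher, median difference 0.96), astrocytes and their endfeet (9 of 12, 0.71) and oligodendrocytes (6 of 12, 0.74) were higher in rTg4510 than in tTA mice, while the 4 CA1 pyramidal genes were lower (4 of 4, median −1.65). The mean level of the 12 astrocyte genes lay between 8.76 and 9.35 in the rTg4510 arrays and between 7.80 and 8.37 in the tTA arrays, with 0 and 1 dim genes, and that of the 8 members between 6.49 and 7.11 in rTg4510 and between 5.93 and 6.32 in tTA arrays. The mean of the 17 microglial genes lay between 6.14 and 7.03 in the rTg4510 and between 5.19 and 5.60 in the tTA arrays, with 5 and 9 dim genes. The mean of the 12 oligodendrocyte genes lay between 7.11 and 7.87 in rTg4510 and between 6.44 and 7.27 in tTA arrays, with 2 and 5 dim genes. None of these lists holds a member, and their part in the vessel result was not tested. The Actb 3′ minus 5′ value, read here as a sign of RNA quality, averaged −0.48 in rTg4510 and −0.70 in tTA CA1, and with it as a covariate the same 8 member probe sets were called.

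Genes of blood cells and of other linings were dim in rTg4510 and tTA CA1, except Hba-a1, a globin gene of red blood cells, and Ptgds and Igf2 of the meningeal list. All 9 perivascular macrophage genes and all 7 blood leukocyte genes were dim in both rTg4510 and tTA CA1, with Lyve1 at 3.34 or less in every group, and 0 of 9 and 0 of 7 were called higher (1 leukocyte gene was lower). Choroid plexus genes were dim in both groups (7 of 7) and 0 were called. Of 3 red blood cell genes 0 were called, and Hba-a1 ranged from 7.04 to 9.05 over the group means. Igf2 ranged from 5.28 to 7.91, and Ptgds reached 11.1. Meningeal and fibroblast genes were dim for 10 of 12 in both groups, with 4 of 12 called higher (median 0.41), and their part in the vessel result was not tested either.

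**Figure D3:**
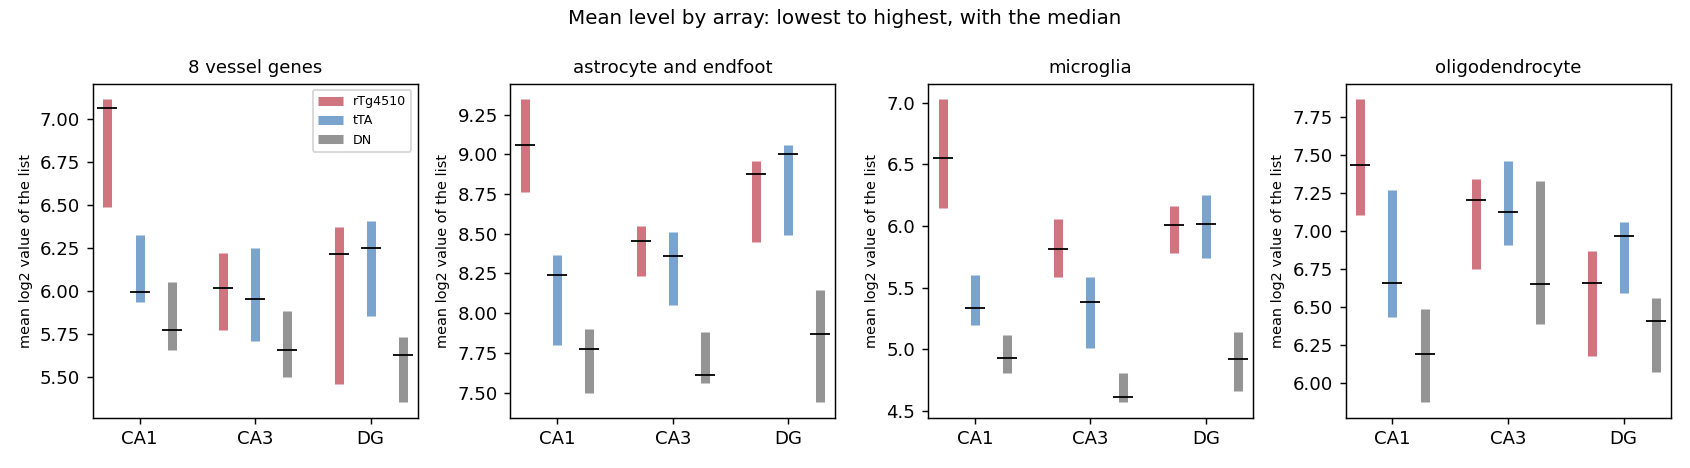
Mean log2 value per array (y axis, log2 scale) of the 8 vessel genes and of the astrocyte, microglia and oligodendrocyte lists, by layer (x axis) and genotype (rTg4510 red, tTA blue, DN gray); each bar runs from the lowest to the highest array of a group and the line is the median. In CA1 the rTg4510 bars of the vessel, astrocyte and microglia panels lie wholly above the tTA bars.

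Among the other vessel genes, the share that rose in rTg4510 CA1 differed from list to list, as did the number of dim genes. No difference between lists was tested. Dim by group mean (rTg4510 and tTA CA1) were 15 and 15 of 23 endothelial identity and 4 and 4 of 16 barrier transport genes. So were 4 and 4 of 7 tight junction, 7 and 8 of 10 pericyte and 7 and 8 of 12 smooth muscle genes. The counts were 12 and 13 of 22 for VEGF and angiopoietin and 4 and 5 of 13 for basement membrane. They were 6 and 7 of 10 for clotting and 9 and 9 of 11 for leukocyte adhesion. Counted by the brightest probe set of each gene, 6.23% of all 11807 genes were called higher and the median difference over them was −0.04. Of endothelial identity genes 3 of 23 were higher and 0 lower (median 0.12): Tek, the angiopoietin receptor (0.997, adjusted p = 0.0472), Podxl, a sialomucin of the vessel lumen (0.94, adjusted p = 0.0410), and Slc9a3r2, a scaffold protein (0.63, adjusted p = 0.0495). Of barrier transport genes 4 of 16 were higher and 0 lower (median 0.38): the iron exporter Slc40a1 (1.19, adjusted p = 0.00211), the organic anion transporter Slco1a4 (0.97, adjusted p = 0.0421), the pump Abcg2 (0.40, adjusted p = 0.0126) and Abcb1b, a close relative of Abcb1a (0.69, adjusted p = 0.0234, dim). Of tight junction genes 2 of 7 were higher and 0 lower (median 0.21), the scaffold Tjp1 (0.42, adjusted p = 0.0423) and Ctnnb1 (0.21, adjusted p = 0.0310). Both are also made by many other cells. Ctnnb1 was lower in tTA than in DN CA1 (−0.22, limma adjusted p = 0.0162), with means of 11.77 in DN and 11.76 in rTg4510 mice. Ocln, the strand partner of claudins, differed by 0.17 between rTg4510 and tTA mice (adjusted p = 0.640).

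In the mural lists 4 genes were called higher and 1 lower. Of pericyte genes 2 of 10 were higher and 1 lower (median 0.22), with Kcnj8, the potassium channel of pericytes, at 0.99 (adjusted p = 0.0119), Rgs4, which neurons make as well, at 1.01 (adjusted p = 0.0131) and Art3 at −1.24 (adjusted p = 0.00864, dim). Rgs4 was lower in tTA than in DN CA1 (−1.07, limma adjusted p = 0.0056), with means of 8.67 in DN and 8.62 in rTg4510 mice. The PDGF receptor Pdgfrb, which pericytes need, differed by 0.22 (adjusted p = 0.216, dim). Of smooth muscle genes 2 of 12 were higher and 0 lower (median 0.14), the tropomyosin Tpm2 (1.30, adjusted p = 0.0130) and Acta2, smooth muscle actin (1.24, adjusted p = 0.00626). Acta2 was dim, with 5.00 in rTg4510 and 3.76 in tTA mice, and its second probe set differed by −0.05.

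Of basement membrane genes 6 of 13 were higher and 0 lower (median 0.54), the largest share among the 9 vessel lists. The laminin-binding integrin chain Itga6 (0.63, adjusted p = 0.0221), Sparc, a matrix protein that glia also make (0.73, adjusted p = 0.00523), the laminin chain Lama2 (0.60, adjusted p = 0.0199, dim) and Nid1 (0.94, adjusted p = 0.00111, dim, with −0.29 on its other probe set) led it. Of VEGF and angiopoietin genes 4 of 22 were higher and 0 lower (median 0.07): Tek, its ligand Angpt1 (1.21, adjusted p = 0.00551, dim), Flt4, the receptor of VEGF-C (1.06, adjusted p = 0.000733, dim), and the hypoxia factor Epas1 (0.53, adjusted p = 0.00767). The partners of Flt1 were not called: the main VEGF receptor Kdr differed by −0.09 (dim), the co-receptor Nrp1 by −0.37 and the ligand Vegfa by 0.27 (dim). Of clotting genes 3 of 10 were higher and 0 lower (median 0.38), tissue plasminogen activator Plat (1.21, adjusted p = 0.00582, dim), tissue factor F3 (1.05, adjusted p = 0.00496) and Anxa2 (0.75, adjusted p = 0.0206, dim). Of leukocyte adhesion genes 1 of 11 was higher and 0 lower (median −0.01), Alcam (0.55, adjusted p = 0.00916), which neurons make as well. Alcam was lower in tTA than in DN CA1 (−0.78, limma adjusted p = 0.000503), with means of 8.87 in DN and 8.64 in rTg4510 mice. In CA3 and DG 0 genes of the 9 lists were called between rTg4510 and tTA mice by their brightest probe set. On other probe sets, looked up after their values were seen, Slc9a3r2 was lower in rTg4510 CA3 on 3 sets (−0.70, −0.68 and −0.59, the highest adjusted p being 0.0494) and Alcam was higher in rTg4510 DG on 1 set (0.61, adjusted p = 0.0469).

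**Figure D4:**
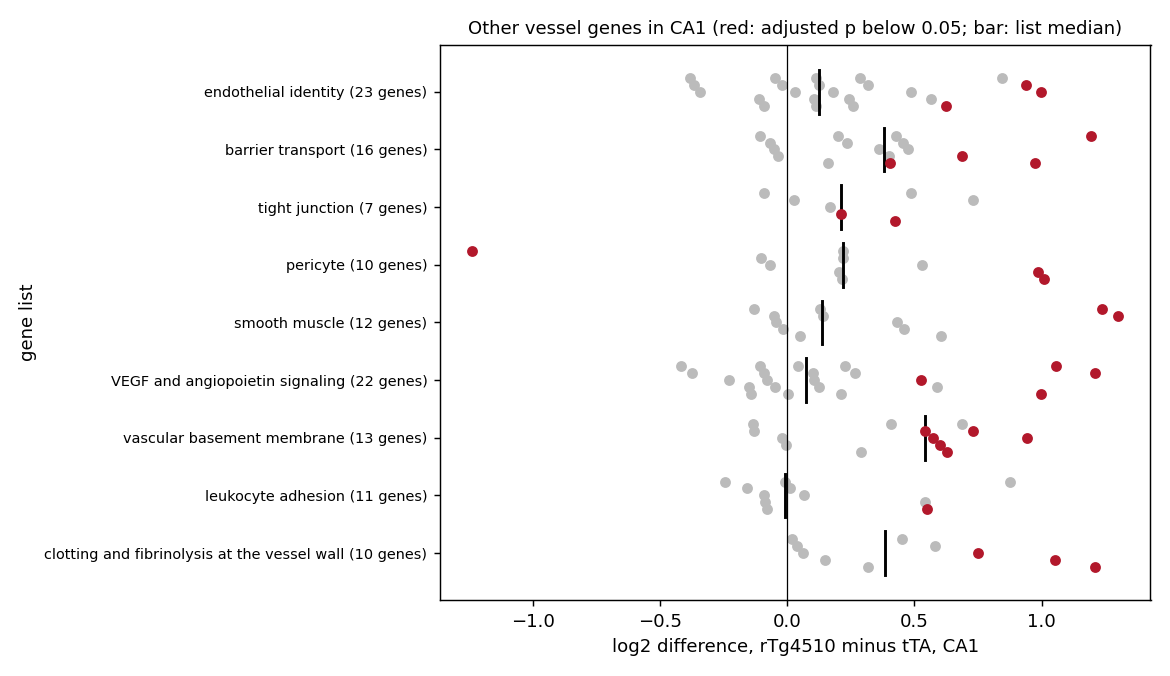
Difference between rTg4510 and tTA mice in CA1 (x axis, rTg4510 minus tTA, log2) for the measured genes of each list of other vessel genes (y axis), by the brightest probe set of each gene; red points have an adjusted p below 0.05 and vertical bars are list medians. The basement membrane list has 6 of 13 genes in red and 1 gene, Art3 of the pericyte list, is called below 0.

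Between tTA and DN mice, Rgs5 was higher in tTA mice in each layer and Cldn5 and Ly6c1 in CA1 and DG. In DG 7 of 15 probe sets were called higher and 0 lower (7.22% of all were called higher; median difference 0.74, against 0.03 over all probe sets). In CA3 5 of 15 were called higher and 0 lower (4.12% of all; median 0.31 against 0.03) and all 5 were mural, with 3 called where the mouse was a random block over the 49 arrays. In CA1 4 of 15 were called higher and 0 lower (7.31% of all; median 0.34 against 0.05).

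Rgs5 on 1417466_at had values of 8.89, 9.22, 9.45, 9.13 and 9.46 in tTA DG, against 8.09, 8.26 and 8.63 (lowest, median and highest) in DN DG. The groups did not overlap, with a difference of 0.94 (SE 0.13, 1.92-fold, adjusted p = 0.000114). In CA3 the values were 8.69, 8.71, 9.34, 9.02 and 9.33 in tTA mice and 8.10, 8.36, 8.12, 8.32 and 8.42 in DN mice, again apart, by 0.75 (SE 0.17, adjusted p = 0.0125). In CA1 tTA mice had 9.15, 8.97, 9.54, 9.38 and 9.37, against 8.26, 8.42 and 8.80 (lowest, median and highest) in DN mice, a difference of 0.79 (SE 0.14, adjusted p = 0.00139) without overlap. These 3 calls held without any 1 mouse. The probe set 1420941_at was called in DG (0.74, adjusted p = 0.00576) and in CA3 (0.56, adjusted p = 0.0367, lost in 7 of 10 fits that left out a mouse), and 1420940_x_at in DG (0.88, adjusted p = 0.0417, lost in 7 of 11). The set 1420942_s_at was called in all 3 layers too (1.11 in DG, 0.88 in CA3 and 0.70 in CA1), the last lost in 7 of 11 fits that left out a mouse.

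The endothelial genes that were higher in tTA mice were Cldn5 and Ly6c1, in DG and CA1. Cldn5 had 5.64, 5.83, 5.75, 5.84 and 5.94 in tTA DG, against 4.27, 4.93 and 5.31 (lowest, median and highest) in DN DG. The difference was 0.92 (SE 0.17, 1.90-fold, adjusted p = 0.00158), without overlap, and DN mice were dim. Ly6c1 had 6.92, 7.54, 7.74, 7.29 and 7.46 in tTA DG, against 6.13, 6.51 and 6.56 (lowest, median and highest) in DN DG, a difference of 0.97 (SE 0.20, 1.95-fold, adjusted p = 0.00315) without overlap. In CA1 the differences were 0.51 (Cldn5, adjusted p = 0.0451) and 0.57 (Ly6c1, adjusted p = 0.0362), and leaving out a mouse ended them in 8 and 9 of 11 fits. Abcb1a, Flt1 and Pecam1 were not called in any layer between tTA and DN mice, with Abcb1a on 1419759_at at 0.06 in CA1, 0.0012 in CA3 and 0.16 in DG.

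Of the other mural genes, Vtn was called in tTA CA3 (0.54 on 1420484_a_at and 0.67 on 1455098_a_at, adjusted p = 0.0267 and 0.0482) and DG (1.10 on 1455098_a_at, adjusted p = 0.0378), and these calls were lost in 7 and 8 of 10 and in 9 of 11 fits that left out a mouse. Myl9 was not called, with −0.21 in CA1, 0.68 in CA3 and 0.83 in DG. Its values in tTA DG were 4.67, 6.62, 4.61, 6.13 and 5.45, so that 3 arrays lay above and 2 within the range of the DN arrays, 4.43 to 4.99. The tTA minus DN difference was not shown to differ between layers: 0 of 15 probe sets were called for DG against CA1 (1.65% of all in either direction; 1 member unadjusted) or DG against CA3 (1.24% of all; 2 members unadjusted).

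The Actb 3′ minus 5′ value moved with this comparison. It averaged −0.61 in tTA DG and −0.30 in DN DG, −0.64 and −0.45 in CA3, and −0.70 and −0.37 in CA1. With it as a covariate the called member probe sets were 2 of 15 in DG (Cldn5 and 1417466_at of Rgs5), 3 in CA3 (1420942_s_at of Rgs5 and both sets of Vtn) and 1 in CA1 (1417466_at of Rgs5). Glial lists moved as well: in DG 10 of 17 microglial genes (median 1.04), 10 of 12 astrocyte genes (0.9998) and 4 of 12 oligodendrocyte genes (0.43) were higher in tTA than in DN mice. The mean of the astrocyte genes lay between 8.49 and 9.06 in tTA DG and between 7.44 and 8.15 in DN DG arrays (0 and 1 dim genes), that of the microglial genes between 5.74 and 6.25 and between 4.66 and 5.14 (6 and 11 dim), and that of the oligodendrocyte genes between 6.59 and 7.06 and between 6.07 and 6.56 (3 and 5 dim). In CA3 9 of 17 microglial, 8 of 12 astrocyte and 1 of 12 oligodendrocyte genes were higher in tTA than in DN mice, and in CA1 5 of 17, 6 of 12 (with 1 lower) and 5 of 12. Of the red blood cell genes Hba-a1 was higher in tTA mice in all 3 layers, by 1.54 in CA1 (adjusted p = 0.00334), 1.40 in CA3 (adjusted p = 0.0460) and 1.45 in DG (adjusted p = 0.0115), and Slc4a1, the anion exchanger, in DG by 0.37 (adjusted p = 0.0103, dim). Their part in the result was not tested.

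Some of the other vessel genes were called in each direction between tTA and DN mice in DG, as happened across the whole array. Of all genes 7.98% were called higher in DG by the brightest probe set. Counted by probe set, the array had 1633 calls above DN and 2136 below DN in tTA DG. Whether any vessel list departed from this background was not tested. Endothelial identity genes were higher in 3 of 23 and lower in 0 (median 0.12), with Ctla2a at 1.37, Sox17 at 0.61 (dim) and Slc9a3r2 at 0.58. Barrier transport genes were higher in 3 of 16 and lower in 0 (median 0.17). These were Slco1a4 at 0.76, the glucose transporter Slc2a1 at 0.50 and the thyroid hormone carrier Slco1c1 at 0.49. Of tight junction genes 0 of 7 were higher and 1 lower (median −0.14), Ocln at −0.51 (adjusted p = 0.0109). Pericyte genes were higher in 0 of 10 and lower in 1 (median 0.11), Rgs4 at −1.18, and smooth muscle genes higher in 1 of 12 and lower in 0 (median 0.16), Mylk at 0.67. Of basement membrane genes 1 of 13 was higher, Sparc at 0.87, and 3 lower (median 0.09), the laminin chains Lamb1 (−0.60) and Lamc1 (−0.52) and Agrn (−0.48). Of VEGF and angiopoietin genes 2 of 22 were higher (median 0.14), Vegfb at 0.58 (dim) and Epas1 at 0.57. Of clotting genes 2 of 10 were higher and 1 lower (median 0.04), F3 at 1.23, Procr at 0.73 and Plat at −0.85, all dim. Of leukocyte adhesion genes 1 of 11 was higher and 1 lower (median 0.09), Selp at 0.23 and Pvr at −0.82, both dim. The 4 other probe sets of Pvr differed by −0.10, 0.19, −0.10 and 0.17.

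**Figure D5:**
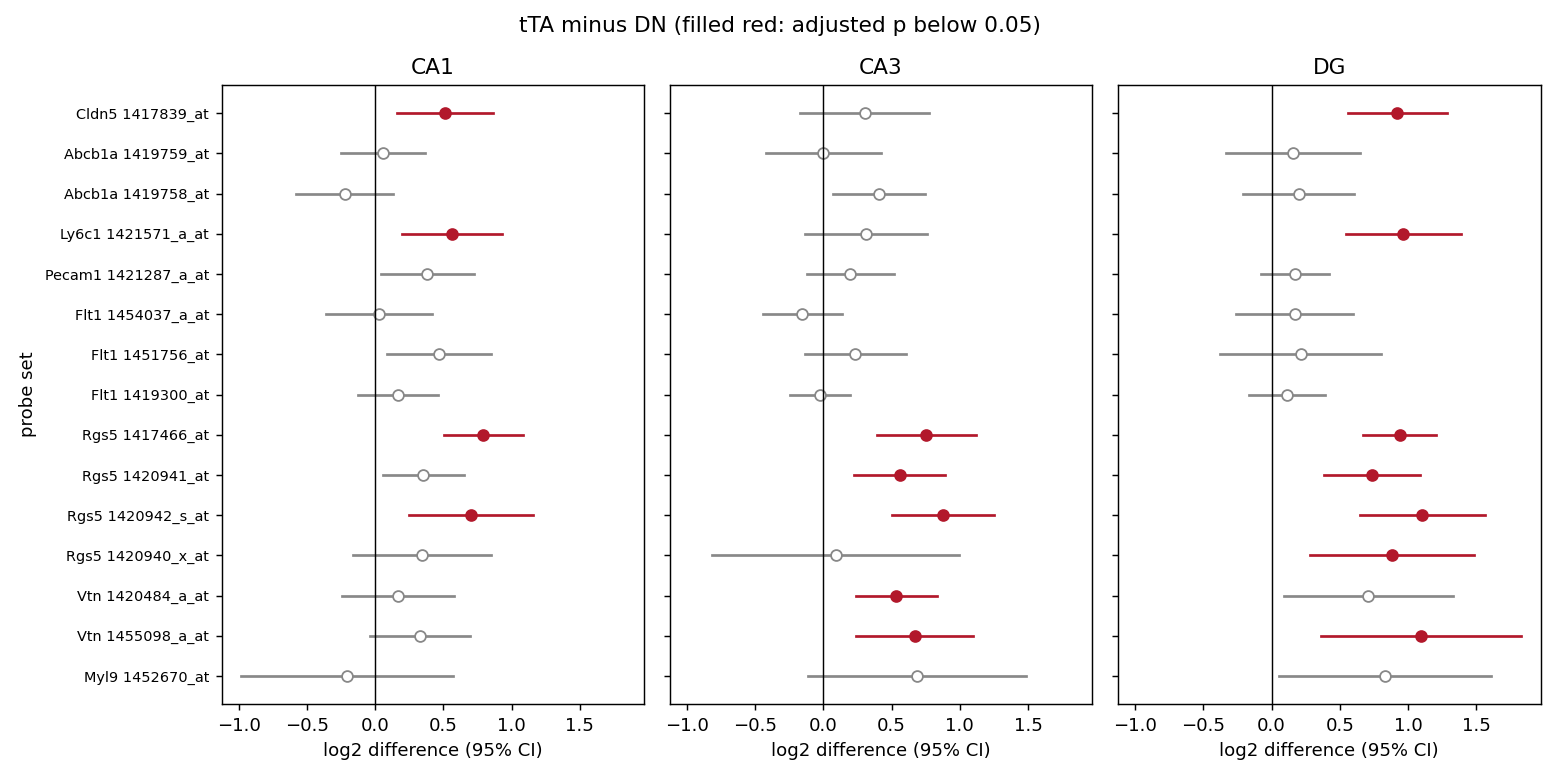
Difference between tTA and DN mice (x axis, tTA minus DN, log2) for each of the 15 probe sets (y axis) in CA1, CA3 and DG, with the 95% confidence interval as a line; filled red points have an adjusted p below 0.05. The sets 1417466_at and 1420942_s_at of Rgs5 are called in all 3 layers, and Cldn5 and Ly6c1 in CA1 and DG.

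Against DN mice, rTg4510 mice had most vessel genes higher in CA1. Of 15 probe sets 13 were called higher and 0 lower (11.1% of all were called higher). The median difference was 1.12, against 0.02 over all probe sets. Not called were Pecam1 (0.29, 95% CI −0.05 to 0.63) and 1419300_at of Flt1 (0.18). Values in DN CA1 were 4.60, 5.17 and 5.29 (lowest, median and highest) for Cldn5 and 5.71, 6.23 and 6.87 for Vtn on 1455098_a_at, below the rTg4510 values given above. The differences were 1.38 for Cldn5 (2.60-fold, adjusted p = 2.37e-05), 1.61 for Vtn (3.05-fold, adjusted p = 1.07e-05), 1.22 for Rgs5 on 1417466_at (adjusted p = 1.39e-05), 1.12 for Ly6c1 (adjusted p = 0.000206) and 1.47 for Myl9 (adjusted p = 0.0079). The 2 calls of Flt1 (0.56 on 1454037_a_at and 0.52 on 1451756_at) were lost in 8 of 11 fits each that left out a mouse. In this comparison too the glial lists rose, with 11 of 12 astrocyte genes higher and 1 lower, 15 of 17 microglial and 11 of 12 oligodendrocyte genes higher, as was Hba-a1 (1.54, adjusted p = 0.00158), and their part was not tested.

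In DG 6 and in CA3 2 of the probe sets were called between rTg4510 and DN mice. Those in DG were 6 higher and 0 lower of 15 (4.1% of all were called higher; median 0.54 against 0.01): Cldn5 (0.82, adjusted p = 0.00415), the 4 sets of Rgs5 (from 0.58 to 1.01) and 1455098_a_at of Vtn (1.52, adjusted p = 0.0076). Of the Rgs5 calls, those of 1420940_x_at, 1420941_at and 1420942_s_at were lost in 6, 7 and 7 of 12 fits that left out a mouse, and that of 1417466_at in 0. Cldn5 had 5.38, 5.61 and 6.21 (lowest, median and highest) in rTg4510 DG and 4.27, 4.93 and 5.31 in DN DG, without overlap. Vtn had 5.27, 7.46 and 7.73 in rTg4510 DG and 4.92, 5.63 and 6.17 in DN DG on that set, with rTg4510 mouse4621 alone in the DN range. In CA3 2 of 15 were called higher and 0 lower (1.91% of all; median 0.42 against 0.01), both of Rgs5 (0.63 on 1417466_at, lost in 9 of 11 fits that left out a mouse, and 0.82 on 1420942_s_at, lost in 0). The astrocyte and microglial lists moved here too, with 10 of 12 and 9 of 17 genes higher in rTg4510 than in DN DG, and 7 of 12 and 10 of 17 in CA3. Of oligodendrocyte genes 2 of 12 were higher in DG and 0 of 12 in CA3. The Actb 3′ minus 5′ value averaged −0.52 in rTg4510 DG and −0.30 in DN DG, and −0.63 in rTg4510 CA3 and −0.45 in DN CA3. The part of these in the result was not tested beyond the Actb covariate, with which 2 member probe sets were called in DG.

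Members varied together across the arrays within groups, loosely. After each group mean was taken away, the 28 pairs of genes had a median correlation of 0.28 over the 49 arrays, with 25 pairs above 0, from −0.28 (Cldn5 and Pecam1) to 0.57 (Ly6c1 and Rgs5). Pairs of an endothelial and a mural gene had a median of 0.33 (15 pairs), endothelial pairs 0.22 (10) and mural pairs 0.31 (3). Different probe sets of 1 gene had 0.81 for Vtn, from 0.47 to 0.61 for Rgs5, 0.40 for Abcb1a and from 0.19 to 0.35 for Flt1. The arrays share mice, captures and RNA quality, and these values carry no test. The 8 genes most like the mean of the members over the 49 arrays were Dbi (r = 0.81), Padi2 (0.75), Aldh1a1 (0.74), Serpinf1 (0.73), Ahnak (0.71), Nmi (0.71), Lgals1 (0.70) and Idh2 (0.69), against a median of −0.01 over all genes.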

How the data were processed

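RNA of laser-captured CA1, CA3 and DG cell layers was amplified with the Ovation Pico WTA System and hybridised to Affymetrix mouse arrays. The deposited values are log2 expression values that the authors made with RMA (background subtraction, quantile normalization and 1 summary per probe set), and no scan batch is given in the sources used here. The number of arrays limits the precision. Of 22716 rows, 90 controls were left out. Symbols came from the platform annotation (18003 probe sets with 1 symbol, 287 with several, 4336 not listed), and all 8 members matched RefSeq. Each layer was fitted with limma 3.58.1 (R 4.3.3), 3 genotypes sharing 1 spread, Benjamini-Hochberg over 22626 probe sets. Contrasts between layers came from 9 groups over 49 arrays with the mouse as a random block (correlation 0.117). The scripts were tested on simulated data.

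Mouse numbers in the labels pair layers of 1 animal: deviations of same-mouse arrays had a median correlation of 0.12 (47 pairs), against −0.01 between mice (1129 pairs).

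The members and lists were chosen with earlier results of these data known. Named were every member probe set and, per vessel list, at most the 4 called genes with the largest difference by brightest probe set (given for rTg4510 against tTA in CA1 and tTA against DN in DG), 7 fixed partners, and the 8 genes most like the members' mean. Rgs4, Alcam and Ctnnb1 were also given for tTA against DN in CA1, looked up after their values were seen. Alternatives were a replicate block or none, 2 genotypes only, quantile normalization again, no dim probe sets, array weights, an Actb covariate, the methods' least significant difference test on log2 and anti-log values, and leaving out each mouse.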

Additional observations from a re-analysis of the deposited data

Results flagged for a closer look

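The difference between rTg4510 and tTA mice itself differed between layers, by a test of that difference, for 11 values. It was larger in CA1 than in CA3 by 1.25 for 1419758_at of Abcb1a, 1.36 for 1420484_a_at and 1.45 for 1455098_a_at of Vtn, and 2.27 for Myl9. It was larger in CA1 than in DG by 0.97 for Cldn5, 1.08 for 1419758_at of Abcb1a, 1.21 for Ly6c1, 0.76 for 1420941_at and 0.99 for 1420942_s_at of Rgs5, 1.07 for 1420484_a_at of Vtn and 1.93 for Myl9. The set 1419758_at was dim in every group, and the brighter set of Abcb1a was called in neither test.

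Single arrays lay far from the rest of their group by Dixon's test in 9 of 135 groups, where chance flags about 1 in 20. For Vtn these were mouse4535 in rTg4510 CA3 (6.49) and mouse4886 in DN CA3 (6.80) on 1420484_a_at, and mouse4621 in rTg4510 DG (5.27) and mouse4886 in DN CA3 (6.30) on 1455098_a_at. For Myl9 it was mouse4535 in rTg4510 CA3 (6.10). For Flt1 they were mouse4806 in DN CA1 (6.35) on 1454037_a_at, and mouse4535 in rTg4510 CA1 (4.79), mouse4600 in rTg4510 CA3 (4.42) and mouse4886 in DN CA3 (4.68) on the dim set 1419300_at.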

How the results depend on the processing

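Of the 57 calls of member probe sets, 27 held under every alternative, 30 were lost under at least 1 and 0 reversed. The number of members called between rTg4510 and tTA mice in CA1 was 8, and 5 with these 2 genotypes only (2405 and 1056 probe sets in all). With the Actb value as a covariate it was again 8 (1313 in all), but between tTA and DN mice it was 1 in place of 4 in CA1 (866 in place of 3656 in all), 3 in place of 5 in CA3 (1083 in place of 2057) and 2 in place of 7 in DG (1265 in place of 3769), and between rTg4510 and DN mice 2 in place of 6 in DG (1021 in place of 2005). The methods' least significant difference test, on log2 or anti-log values, gave 1 between tTA and DN mice in CA1 (3350 and 3363 in all) and 3 in CA3 (1714 and 1734). Between rTg4510 and DN mice it gave 3 in DG (1663 and 1652 in all). Between rTg4510 and DN mice in CA3 the count of 2 (705 in all) was 4 with 2 genotypes only (846 in all) and 5 with array weights (1364). It was 1 with that test on the log2 scale (456 in all) and 0 on the anti-log scale (458). With a replicate block for the mouse, or with 2 genotypes only, the count between tTA and DN mice in CA3 was 3 (2296 and 2310 in all, 2057 as reported). The block moved no other genotype count of members by over 1.5 times. In DN mice array weights gave 2 in place of 0 between CA1 and CA3 (5107 in place of 2920 in all). Between CA1 and DG they gave 5 in place of 1 (5818 in place of 3956 in all). There the count was 0 without the replicate block (3491 in all) or with quantile normalization again (3854), and 2 without dim probe sets (3633).

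Leaving out 1 mouse gave counts of 8 to 10 between rTg4510 and tTA mice in CA1, 11 to 12 between rTg4510 and DN mice in CA1, 5 to 7 between tTA and DN mice in DG, and 3 to 5 for CA1 against CA3. It moved other counts by over 1.5 times. Between rTg4510 and DN mice in CA3 the range was 1 to 2 (lower without rTg4510 mouse4549, mouse4600 or mouse4621 or DN mouse4797, mouse4825, mouse4866 or mouse4883), and in DG 3 to 8 (rTg4510 mouse4535 or mouse4549 or DN mouse4797, mouse4883 or mouse4886). Between tTA and DN mice it was 1 to 3 in CA1 (tTA mouse4580, mouse4592 or mouse4637 or DN mouse4797, mouse4825, mouse4866, mouse4883 or mouse4886) and 2 to 4 in CA3 (tTA mouse4570, mouse4592 or mouse4626 or DN mouse4797, mouse4825, mouse4866 or mouse4883). For CA1 against DG it was 3 to 8 (rTg4510 mouse4535 or mouse4666 or tTA mouse4626 or mouse4637), and in DN mice for CA1 against DG 0 to 1 (0 without any DN mouse but mouse4866). The other counts stayed at 0. Calls over all probe sets in these fits are not given here, so a shift of the members is not separated from a shift of all calls. Counting a gene of the other vessel lists by any of its probe sets in place of the brightest, 73 of 81 counts of genes called higher stayed within 1.5 times and 8 rose. Over all probe sets, calls between rTg4510 and tTA mice ranged from 25 to 366 in CA3 (256 as reported) and from 1 to 704 in DG (177), the lowest with 2 genotypes only and the highest with the replicate block. Calls between rTg4510 and DN mice in CA3 were as few as 275 (Actb covariate), calls in DN mice as many as 5107 between CA1 and CA3 (2920 as reported, array weights), and for CA1 against CA3 as few as 526 (878 as reported, no replicate block). The causes were not tested.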
